A study of Mus musculus with 24 samples.

Results

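The genes of the growth hormone receptor and insulin-like growth factor (IGF) axis were described in adipose tissue of mice with a changed amino acid in STAT5B. The genes were selected by symbol and not by a measured value, and they are 10 of the 24421 gene symbols in each count file. They are the growth hormone receptor Ghr, the ligands Igf1 and Igf2, the receptors Igf1r and Igf2r, and the IGF-binding protein genes Igfbp3, Igfbp4, Igfbp5, Igfbp6 and Igfbp7. All 10 were listed in all 24 files and passed the filter on low counts in every comparison.

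Growth hormone binds its receptor GHR on the cell surface, which activates the kinase JAK2 and, through it, STAT5A and STAT5B, transcription factors that enter the nucleus and switch on target genes, among them Igf1 and the feedback inhibitors of the SOCS family. IGF-I made in liver circulates, while IGF-I made in other tissues, including fat, acts locally through the receptor tyrosine kinase IGF1R. The IGF-binding proteins hold IGFs outside the cell and lengthen or block their action, and proteases release the ligand by cutting them. In adipose tissue growth hormone favours lipid release, and the binding proteins are made largely by the stromal cells between adipocytes.

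The 6 groups were male and female C57BL/6 mice of 3 genotypes, all 2 months of age: WT, STAT5B-Y665F and STAT5B-Y665H. Each group had 4 libraries of total RNA freed of ribosomal RNA. The names give the residue of STAT5B and its change, from tyrosine to phenylalanine (Y665F) or to histidine (Y665H). The title of the series places the mutations in the SH2 domain, the part of a STAT that binds phosphorylated tyrosines, and concerns lipid metabolism in liver; the libraries here are labelled adipose. The labels name no fat depot, do not say whether the alleles were on 1 or both chromosomes, and do not say that libraries of a group came from separate animals, so the p-values measure the spread between these libraries, which may be technical.

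The changed residue lies in exon 16 of 19 of Stat5b, on the minus strand of chromosome 11 at chr11:100787291-100787293 (mm10), where both full-length GENCODE transcripts carry a tyrosine codon. The coding sequence around it is shown because every comparison of a mutant rests on this codon, which stands in capitals.
Stat5b, mutated codon: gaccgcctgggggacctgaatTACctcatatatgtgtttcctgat
Gene counts do not show which allele was transcribed, so they do not check the genotype labels. Stat5b itself was measured at similar levels everywhere, in counts per 1000000 (CPM, scaled by TMM, a method that balances library composition): 103 ± 9.18 CPM (SD, n = 4) in WT females, 106 ± 14.9 in Y665F females, 104 ± 5.91 in Y665H females, 90.1 ± 15.4 in WT males, 113 ± 13.5 in Y665F males and 103 ± 8.63 in Y665H males. The groups overlapped in all comparisons, and Stat5b passed the test in none.

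Libraries held 20982647 to 41345247 counts assigned to genes. All 12 adipocyte markers reached 1 CPM in all 24 libraries, with sums from 7852 to 32580 CPM, which goes with the tissue label; the 10 hepatocyte markers summed to at most 26.3 CPM. Some libraries stood apart. The 10 markers of the epididymis, the sperm duct that lies beside a fat pad of male mice, summed to 0.389 to 2.03 CPM in the female libraries and to over 100 CPM in 7 of the 12 male libraries. These were WT males 2, 3 and 4 (15160, 3206 and 1092 CPM), Y665F males 1 and 4 (352 and 873 CPM) and Y665H males 3 and 4 (1528 and 153 CPM). WT male 2 had the lowest adipocyte sum, 7852 CPM. Skeletal muscle markers summed to 556 to 1844 CPM in 4 female libraries (WT females 1 and 4, Y665H females 3 and 4) and to at most 264 CPM in the other 20. Among females, Y665F female 3 had the lowest adipocyte sum (13040 CPM) and the highest epithelial sum (1651 CPM, against at most 279 CPM in the other females). In addition, the 10 T cell markers summed to 31.3 to 78.5 CPM in the 8 Y665F libraries and to 9.08 to 19.1 CPM in the 8 WT libraries. In bulk tissue, fewer cells of a type and less RNA per cell cannot be told apart.

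Per kilobase of annotated exon, so that genes can be compared, Igfbp7 had the highest mean level of the 10 genes in all 6 groups, from 221 CPM per kilobase in WT males to 398 in Y665F females. Igfbp4, Igfbp6, Igfbp5 and Ghr followed, with group means between 74.0 CPM per kilobase (Ghr in WT males) and 254 (Igfbp6 in Y665F females). Igf1 (19.4 to 42.7 CPM per kilobase) and Igf2r (20.1 to 26.7) lay near each other. Igfbp3 (7.41 to 16.3), Igf1r (4.44 to 11.4) and Igf2 (3.51 to 4.85) were lowest. On this scale Ghr lay above both IGF receptor genes, and Igf1 above Igf2, in each group.

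**Figure D1:**
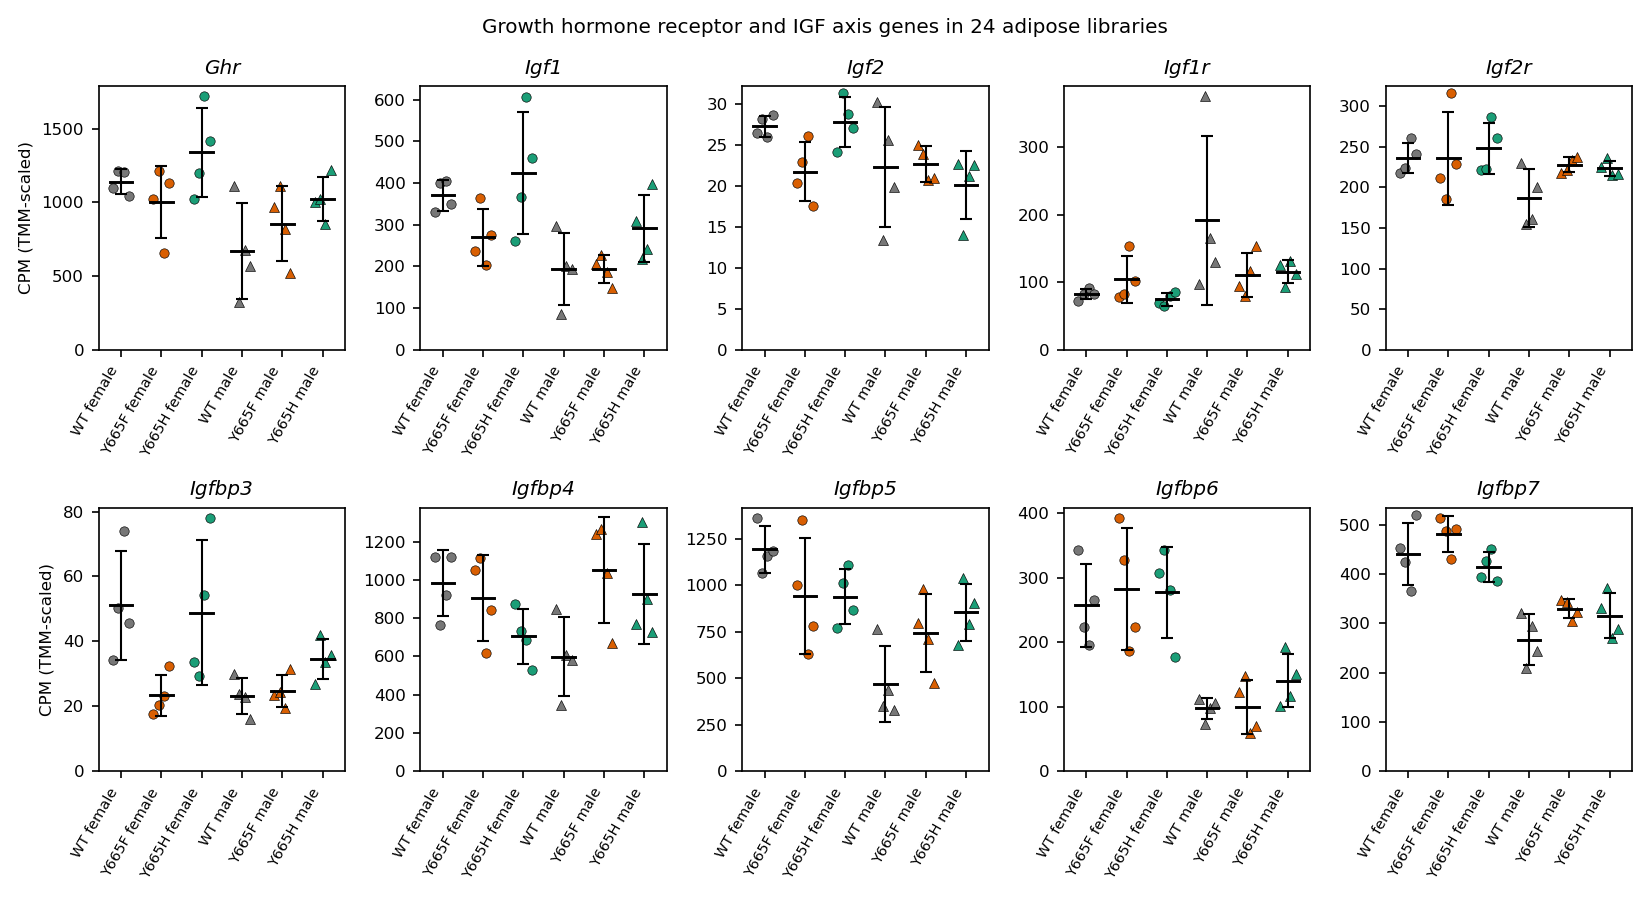
Level of each of the 10 genes, in TMM-scaled CPM on an axis from 0, in each library of the 6 groups (circles female, triangles male; 4 points per group in replicate order; bars show the mean and SD). Igfbp6 and Igfbp7 lie lower in males of each genotype, and WT male 2 has the lowest Ghr and Igf1 and the highest Igf1r of all libraries.

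Against WT of the same sex, neither mutation moved any of the 10 genes past the test (edgeR quasi-likelihood test over all genes, adjusted p under 0.05, hereafter called). In females 0 of 10 genes were called for Y665F, where 3.33% of all genes were, and 0 of 10 for Y665H, where 3.34% were. In males 0 of 10 were called for either mutation, and so were 0% of all genes in both comparisons. At an unadjusted p under 0.05 there were 3 genes for Y665F and 2 for Y665H in females, and 1 and 2 in males, while 26.3%, 23.8%, 17.1% and 11.4% of all genes were under it. DESeq2 called 1 gene, Igfbp3, in Y665F females, where it called 9.95% of all genes, and 0 of the 10 in the other 3 comparisons (8.65%, 5.28% and 0.549% of all genes). Over the 10 genes the median log2 fold change was -0.15 for Y665F females and -0.03 for Y665H females, against 0.02 and 0 over all genes, and 0.19 for Y665F males and 0.54 for Y665H males, against -0.04 and -0.05.

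The receptor gene Ghr did not separate the genotypes. WT females were at 1099, 1216, 1208 and 1044 CPM, Y665F females at 1020, 1211, 657 and 1130 CPM, and Y665H females at 1020, 1203, 1721 and 1414 CPM. Only Y665F female 3, with the low adipocyte sum, lay under 1000 CPM, and all 3 female groups overlapped. WT males were at 1110, 326, 678 and 565 CPM, Y665F males at 970, 1114, 816 and 518 CPM, and Y665H males at 1000, 1023, 850 and 1220 CPM. The 3 low WT males are the 3 WT libraries with epididymis markers, and the remaining one lay within the range of WT females. Against WT the log2 fold changes of Ghr were -0.18 ± 0.19 (SE) for Y665F and 0.23 ± 0.16 for Y665H in females, and 0.35 ± 0.38 and 0.60 ± 0.34 in males. In descending order the group means ran Y665H females, WT females, Y665H males, Y665F females, Y665F males and WT males, and each group overlapped the next.

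Igf1, the main target of the receptor in this axis, had 330, 399, 404 and 349 CPM in WT females, while the Y665F females had 236, 363, 204 and 275 CPM. Of the Y665F females 3 lay below all WT females and 1 lay among them. The log2 fold change was -0.46 ± 0.17 (SE; adjusted p = 0.148, edgeR), so it was not called. Y665H females spread from 261 to 606 CPM, on both sides of WT (0.18 ± 0.22). Among males, WT were at 296, 86.2, 201 and 193 CPM, Y665F at 206, 228, 187 and 149 CPM, and Y665H at 308, 217, 240 and 398 CPM. Y665H males were the highest male group by mean (291 ± 80.9 CPM, SD, n = 4), but overlapped both others. In descending order the group means of Igf1 ran Y665H females, WT females, Y665H males, Y665F females, WT males and Y665F males, with overlap at each step.

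Igf2, the fetal growth ligand that is imprinted in mice, was low and even: WT females lay between 25.9 and 28.6 CPM, Y665F females between 17.6 and 26.0 CPM and Y665H females between 24.1 and 31.3 CPM. For Y665F females the log2 fold change was -0.33 ± 0.12 (SE; adjusted p = 0.135, edgeR). Leaving out Y665F female 3 brought it to -0.43 with an adjusted p of 0.0489. This was the only call in 8 fits without a library, in which the adjusted p reached 0.266 (edgeR). That fit called 747 of all genes, against 521 with every library. The alternatives that kept every library called Igf2 here in 0 of 6 settings. Male Igf2 lay between 13.3 and 30.2 CPM over the 3 genotypes, with WT males covering that whole range. Of the annotated exon bases of Igf2, 62.8% also belong to Gm49394 on the same strand and 1.7% to the antisense gene Igf2os; how the counting treated shared bases is not given in the sources used here, so the level of Igf2 is uncertain.

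Of the receptors for IGFs, Igf1r encodes the signalling kinase and Igf2r a clearance receptor that carries IGF-II to lysosomes. Igf1r was at 72.6, 82.5, 91.1 and 82.9 CPM in WT females, 78.4, 82.7, 154 and 102 CPM in Y665F females and 69.7, 64.3, 78.9 and 85.1 CPM in Y665H females. The single high value belongs to Y665F female 3. WT males were at 97.1, 375, 166 and 129 CPM, and the order of these libraries is the order of their epididymis sums. Against WT males the log2 fold changes were -0.79 ± 0.43 (SE) for Y665F and -0.74 ± 0.39 for Y665H, with adjusted p-values of 0.36 and 0.402 (edgeR). Igf2r varied least: 218 to 261 CPM in WT females, 185 to 317 in Y665F females, 221 to 287 in Y665H females, 154 to 230 in WT males, 218 to 237 in Y665F males and 216 to 236 in Y665H males, with every group overlapping its neighbours.

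Igfbp3, which encodes the main carrier of circulating IGFs, showed the widest separation of a mutant from WT. WT females had 34.4, 50.4, 74.2 and 45.7 CPM and the Y665F females 17.6, 20.5, 23.1 and 32.3 CPM, so all 4 Y665F females lay below all 4 WT females. It was the only one of the 10 genes whose 2 groups did not overlap in this comparison, in which 7.26% of all genes were separated in that direction. The log2 fold change was -1.13 ± 0.26 (SE) with an adjusted p of 0.0533 by edgeR, just outside the threshold. DESeq2 gave -1.15 with an adjusted p of 0.000511, an edgeR fit of all 24 libraries together gave 0.0385, and without any 1 library the edgeR value ranged from 0.0652 to 0.138. The call thus depended on the method. Y665H females were at 33.7, 29.2, 54.3 and 78.2 CPM, which spans WT (-0.07 ± 0.33). Y665H females against Y665F females gave 1.06 ± 0.33 (adjusted p = 0.0569 by edgeR and 0.00611 by DESeq2), and this comparison shares the Y665F libraries with the first. The T cell marker sums were 31.3 to 47.6 CPM in Y665F females against 9.08 to 13.5 CPM in WT females, with all 10 markers called higher, and all 12 adipocyte markers had a log2 fold change below 0 there, none of them called. Of 7 tested thermogenic adipocyte markers all were lower in Y665F females and 5 were called, with sums of 13.0 to 25.7 CPM against 51.3 to 111 CPM. All 12 skeletal muscle markers were lower too, 0 called and 11 at an unadjusted p under 0.05, with sums of 67.6 to 185 CPM against 143 to 1041 CPM. Over the 24 libraries Igfbp3 had a Pearson r of 0.64 with the pericyte and smooth muscle markers, 0.57 with the skeletal muscle markers and 0.50 with the thermogenic ones (0.54, 0.16 and -0.47 within groups). The part of these cells in the Igfbp3 values was not tested. In males Igfbp3 was at 29.9, 23.9, 22.9 and 16.1 CPM in WT, 23.4, 24.4, 19.6 and 31.6 CPM in Y665F, and 26.9, 41.9, 33.7 and 35.7 CPM in Y665H, with an adjusted p of 0.817 and 0.402 against WT.

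Igfbp4 and Igfbp5, whose products bind IGFs in the tissue and at the matrix, had higher means in mutant males than in WT males, and no difference from WT was called in either sex. Igfbp4 was at 1118, 763, 924 and 1122 CPM in WT females. Y665F females had 1050, 1117, 617 and 843 CPM (log2 fold change -0.12 ± 0.21, SE, adjusted p = 0.748, edgeR), whereas Y665H females had 876, 733, 686 and 527 CPM (-0.48 ± 0.18, adjusted p = 0.144). In WT males it was at 850, 345, 610 and 583 CPM, in Y665F males at 1239, 1269, 1035 and 668 CPM, and in Y665H males at 771, 1304, 899 and 728 CPM. The WT male with 345 CPM is the library with the most epididymis RNA. Igfbp5 was at 1364, 1064, 1160 and 1186 CPM in WT females, 1003, 1349, 632 and 781 CPM in Y665F females and 772, 1013, 1108 and 865 CPM in Y665H females. Male Igfbp5 was at 767, 348, 436 and 327 CPM in WT, 800, 981, 713 and 474 CPM in Y665F, and 678, 1038, 793 and 907 CPM in Y665H. WT male 1, without epididymis markers, lay among the mutant males for Igfbp5, and the 3 other WT males lay below all 8 of them.

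**Figure D2:**
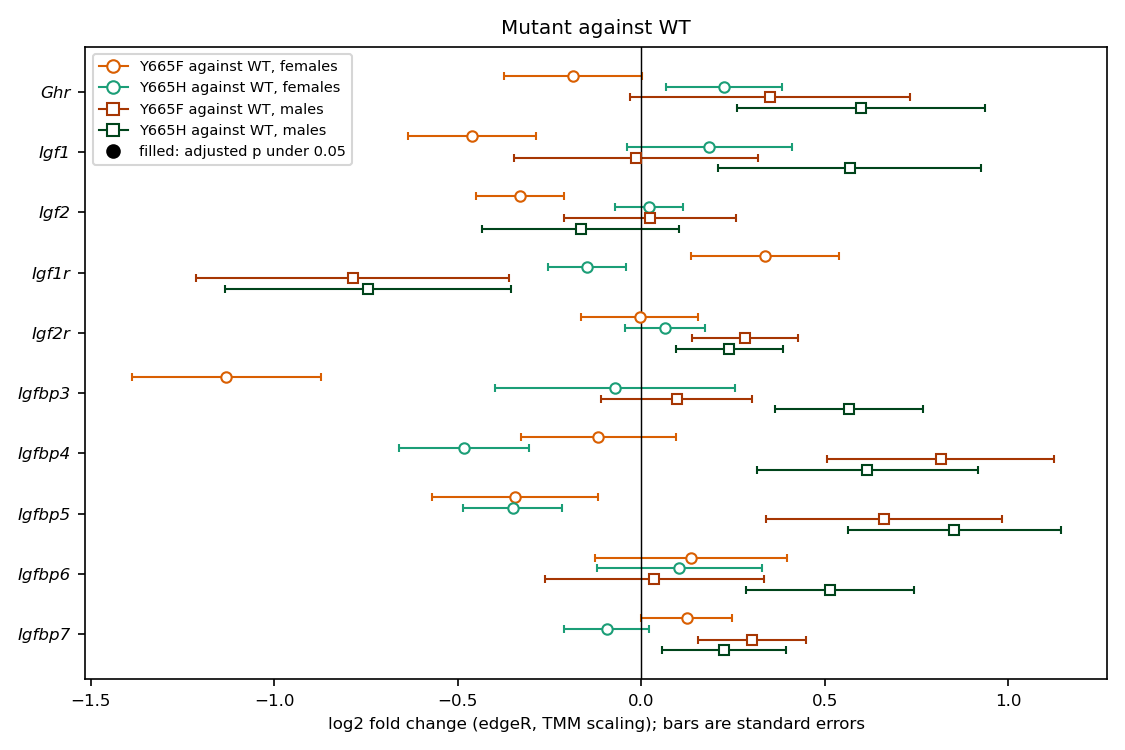
Log2 fold change of each gene in each mutant against WT of the same sex (points; circles female, squares male; bars are standard errors of the edgeR fit). All points are open because none had an adjusted p under 0.05; Igfbp3 in Y665F females, at -1.13, is farthest from 0.

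An interaction of genotype and sex over 16 libraries tested whether each mutation had unequal effects in males and females. By edgeR 0 of the 10 genes were called for Y665F (0% of all genes) and 0 for Y665H (0.0119%), with 4 and 2 genes at an unadjusted p under 0.05 (21.8% and 18.3% of all genes). DESeq2 called Igfbp3 for Y665F (5.45% of all genes) and Igfbp5 for Y665H (3.28%). For Igfbp3 the effect of Y665F was 1.22 ± 0.36 (SE) higher on the log2 scale in males than in females (adjusted p = 0.131 by edgeR and 0.0241 by DESeq2). For Igfbp5 the effect of Y665H was 1.20 ± 0.33 higher in males (0.133 and 0.0160), and for Igfbp4 it was 1.10 ± 0.36 higher (0.177 by edgeR). WT male 1 mattered to each. Without it, edgeR called Igfbp3 and Igfbp5 for Y665F (adjusted p = 0.0359 and 0.0365), among 1686 of all genes, against 0 with every library. For Y665H it called Igfbp4 and Igfbp5 (0.0283 and 0.00387), among 1844 of all genes, against 2 with every library. Without the 7 male libraries with epididymis markers the differences were 0.71 for Igfbp3 in Y665F, and 0.77 and 0.52 for Igfbp4 and Igfbp5 in Y665H. In those fits WT male 1 is the only WT male, so the spread comes from the other groups.

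Between the mutants, 0 of 10 genes were called in females, a comparison in which 17.4% of all genes were called, and 0 in males, where 1.03% were. At an unadjusted p under 0.05 there were 5 genes in females (Igf1, Igf2 and Igfbp3 higher in Y665H, Igf1r and Igfbp7 lower) and 2 in males (Igf1 and Igfbp3, both higher in Y665H), beside 33.4% and 18% of all genes. DESeq2 called 1 in females, Igfbp3 (19.5% of all genes), and 0 in males (5.19%). Igf1 lay at 423 ± 147 CPM in Y665H females against 269 ± 68.8 in Y665F females (SD, n = 4), with a log2 difference of 0.64 ± 0.27 (SE), and at 291 ± 80.9 against 192 ± 33.5 CPM in males, with 0.58 ± 0.21. Both pairs of groups overlapped. The adipocyte sums differed in the same direction, with medians of 30520 and 21270 CPM in Y665H and Y665F females and of 22590 and 17690 CPM in the males, and their part in the Igf1 values was not tested.

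Between males and females some of the genes passed the test. In WT mice 4 of the 10 genes fell in males: Igfbp3, Igfbp5, Igfbp6 and Igfbp7, where 5.95% of all genes were called lower. In Y665F mice Igfbp6 and Igfbp7 fell, where 7.52% of all genes were called lower. In Y665H mice Igfbp6 and Igfbp7 fell (13.7% of all genes) and Igf1r rose (15.2%). DESeq2 called 7 of the 10 in WT, 2 in Y665F and 4 in Y665H, where it called 21%, 20.4% and 28% of all genes. Igfbp6 and Igfbp7 were thus called lower in males in all 3 genotypes. How many of all genes were called lower in all 3 was not counted. The median log2 fold change of the 10 genes was -0.73 in WT, -0.13 in Y665F and -0.38 in Y665H, against 0.04, 0 and 0.02 over all genes.

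Igfbp6 encodes a binding protein that prefers IGF-II. Females were at 343, 224, 196 and 266 CPM in WT, 392, 328, 186 and 223 CPM in Y665F, and 307, 343, 281 and 178 CPM in Y665H. Males were at 111, 73.5, 98.5 and 106 CPM in WT, 123, 148, 59.4 and 70.6 CPM in Y665F, and 101, 193, 116 and 152 CPM in Y665H. Only Y665H male 2, at 193 CPM, overlapped any female, so 11 of 12 males lay below all 12 females. How many of all genes lie so over the 24 libraries was not counted. Within WT and within Y665F no male overlapped a female, as for 11.5% and 13.2% of all genes in that direction. Log2 fold changes of males against females were -1.39 ± 0.20 (SE, adjusted p = 0.00894, edgeR) in WT, -1.49 ± 0.35 (0.0270) in Y665F and -0.97 ± 0.24 (0.0162) in Y665H. The call held without any 1 library in WT and Y665H, and was lost in Y665F without female 1, 2 or 4 or without male 3, with adjusted p up to 0.0701. Group means ran 283, 277 and 257 CPM for Y665F, Y665H and WT females and 140, 100 and 97.2 CPM for Y665H, Y665F and WT males; the break between WT females and Y665H males was the only step without overlap.

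Igfbp7 encodes a secreted protein of vessel walls and stroma that binds IGFs weakly. Females were at 453, 425, 367 and 520 CPM in WT, 514, 488, 430 and 493 CPM in Y665F, and 394, 427, 451 and 386 CPM in Y665H. Males were at 322, 209, 295 and 243 CPM in WT, 347, 343, 306 and 323 CPM in Y665F, and 331, 373, 270 and 289 CPM in Y665H. Within each genotype no male overlapped a female, and over all genotypes 11 of 12 males lay below all females. The share of all genes that were separated downwards within a genotype was 11.5% in WT, 13.2% in Y665F and 16.1% in Y665H. Their share over all genotypes was not counted. Log2 fold changes were -0.71 ± 0.17 (SE, adjusted p = 0.0353, edgeR) in WT, -0.54 ± 0.09 (0.0120) in Y665F and -0.39 ± 0.12 (0.0330) in Y665H. Leaving out single libraries kept the Y665F call 8 times of 8, but the WT call 1 time and the Y665H call 2 times of 8, with adjusted p up to 0.101 and 0.0897. Scaling by library totals, which raises the median gene in Y665H males against females from 0.02 to 0.17 on the log2 scale, left Igfbp7 at -0.24 there (adjusted p = 0.127). Of its exon bases, 7.0% lie opposite Polr2b.

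The sequences upstream of the RefSeq starts of these 2 genes are shown because they were the pair that was lower in males throughout. Each is the 250 bases before the RefSeq transcription start (GRCm38.p6, which has the coordinates of mm10), read 5′ to 3′ on the strand of the gene, with CG dinucleotides in capitals: Igfbp6 on the plus strand at chr15:102143936-102144185, and Igfbp7 on the minus strand at chr5:77408046-77408295. The GENCODE start of Igfbp6 lies further downstream, at position 102144362, and the bases after the RefSeq start of Igfbp6 were not found in a GENCODE transcript of the gene.
Igfbp6: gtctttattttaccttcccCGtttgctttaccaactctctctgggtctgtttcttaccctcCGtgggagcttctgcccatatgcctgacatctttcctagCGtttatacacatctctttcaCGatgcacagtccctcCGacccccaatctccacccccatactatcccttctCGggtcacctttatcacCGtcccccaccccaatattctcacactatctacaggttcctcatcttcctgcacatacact
Igfbp7: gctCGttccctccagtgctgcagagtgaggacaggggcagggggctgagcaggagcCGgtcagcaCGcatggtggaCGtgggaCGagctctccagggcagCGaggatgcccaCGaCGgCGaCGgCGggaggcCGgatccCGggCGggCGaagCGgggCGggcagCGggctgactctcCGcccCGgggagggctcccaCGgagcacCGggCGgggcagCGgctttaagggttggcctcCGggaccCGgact
The window of Igfbp7 holds 26 CG dinucleotides and that of Igfbp6 holds 7; the median over all 32841 RefSeq windows of this length is 6, with quartiles of 2 and 16. All 10 genes matched the RefSeq table, with 14 windows. The STAT5 recognition motif TTCNNNGAA, searched on both strands, occurs in 0 of the 14 windows and in 7.02% of all windows. The palindromic oestrogen response motif GGTCANNNTGACC (0.0639% of all windows) and the androgen response motif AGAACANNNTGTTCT (0.00913%) also occur in 0 of the 14. These letters are not in these windows, which says nothing of sites elsewhere.

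Igfbp5 and Igfbp3 were called between the sexes in WT mice, not in the mutants. WT males had 327 to 767 CPM of Igfbp5, against 1064 to 1364 CPM in WT females (log2 fold change -1.33 ± 0.28, SE, adjusted p = 0.0236, edgeR). The same contrast was -0.34 ± 0.28 in Y665F and -0.13 ± 0.16 in Y665H. For Igfbp3 it was -1.12 ± 0.26 in WT (0.0306), 0.09 ± 0.21 in Y665F and -0.49 ± 0.29 in Y665H. Those differences between genotypes are the interactions given above, which edgeR did not call. Leaving out single libraries kept the WT call of Igfbp5 3 times of 8 and that of Igfbp3 1 time of 8. Each call held when WT male 1 was left out. That fit called 8 of the 10 genes, and 5076 of all genes against 2079 with every library. Skeletal muscle and thermogenic adipocyte markers moved between the sexes as well: in WT 10 of 12 and 6 of 7 tested were called lower in males (median log2 fold changes -5.10 and -2.43), in Y665F 0 of 11 and 1 of 6 (0.06 and 0.34), and in Y665H 11 of 12 and 7 of 8 (-5.93 and -3.10). Igfbp5 had r = 0.44 and 0.37 with these lists over the 24 libraries (0.10 and -0.27 within groups). It had 0.79 with the adipocyte markers (0.73), -0.81 with the epithelial markers (-0.75) and 0.75 with those of adipose progenitors and fibroblasts (0.55). In WT males 11 of 12 adipocyte markers were lower, 0 called (median -0.68). Epithelial markers were higher for 10 of 11 tested there, 5 called (median 4.20). The part of these lists in the Igfbp3 and Igfbp5 values was not tested.

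Igf1r rose in Y665H males: females were at 64.3 to 85.1 CPM and males at 125, 92.7, 130 and 112 CPM, without overlap, as 15.3% of all genes were in that direction (log2 fold change 0.64 ± 0.13, SE, adjusted p = 0.00677, edgeR). The epithelial markers were also higher in Y665H males, with 6 of 11 tested called and a median log2 fold change of 2.52. Of the 12 adipocyte markers 9 were lower there, 3 of them called, and 1 was called higher (median -0.30). Igf1r had a Pearson r of 0.88 with the epithelial and -0.90 with the adipocyte markers over the 24 libraries (0.81 and -0.92 within groups). The part of both lists in the Igf1r result was not tested. The Igf1r call held without any 1 of the 8 libraries, but not in the fit of all 24 libraries (0.142). In WT the males also lay above all females, as for 10.6% of all genes, with 1.24 ± 0.39 and an adjusted p of 0.0669, and in Y665F the groups overlapped (0.10 ± 0.27). The growth hormone receptor itself was lower by mean in males of each genotype without a call: -0.76 ± 0.32 in WT, -0.23 ± 0.27 in Y665F and -0.38 ± 0.17 in Y665H. For Igf1 the values were -0.92 ± 0.32, -0.48 ± 0.20 and -0.53 ± 0.27, with adjusted p of 0.0843, 0.126 and 0.171 (edgeR). No WT male overlapped a WT female for Igf1, as for 11.5% of all genes in that direction. Igf2 in Y665H males, at 13.9 to 22.7 CPM, did not overlap the females (-0.46 ± 0.16, adjusted p = 0.0596, edgeR), as 16.1% of all genes did not in that direction.

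**Figure D3:**
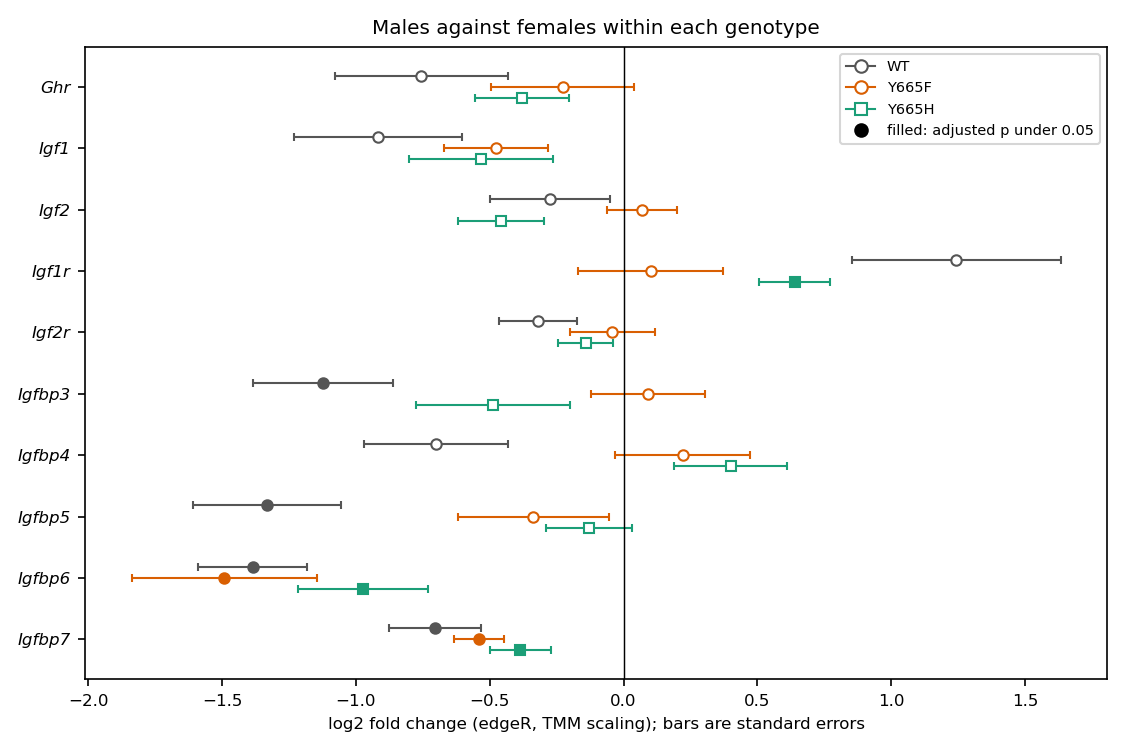
Log2 fold change of males against females for each gene in WT, Y665F and Y665H (points; bars are standard errors of the edgeR fit; filled points have an adjusted p under 0.05). Igfbp6 and Igfbp7 are filled and below 0 in all 3 genotypes.

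Without the 7 male libraries that carried epididymis markers, 0 of the 10 genes were called between the sexes in any genotype, a choice made after the data were seen that leaves 1 WT, 2 Y665F and 2 Y665H males. In these fits 1.46%, 3.54% and 14.4% of all genes were called. The log2 fold changes of Igfbp6 were then -1.20, -1.44 and -0.91 in WT, Y665F and Y665H (adjusted p = 0.152, 0.115 and 0.119, edgeR), and so close to those with all libraries. Those of Igfbp7 were -0.45, -0.56 and -0.23 (0.394, 0.0594 and 0.229). Igf1r in Y665H was at 0.56 (0.0652). In WT, by contrast, the difference of Igfbp5 went from -1.33 to -0.64, that of Ghr from -0.76 to -0.04, that of Igf1 from -0.92 to -0.32 and that of Igf1r from 1.24 to 0.24. Across the 12 males, Ghr had a median of 1023 CPM (816 to 1114) in the 5 libraries with at most 100 CPM of epididymis markers. In the other 7 it had a median of 678 CPM (326 to 1220), so the classes overlapped. Igfbp6 had medians of 111 and 106 CPM. WT males 2, 3 and 4 are among the 7 and 1 WT male is among the 5, so the classes differ in genotype too.

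Levels of the 10 genes followed each other and the marker lists across libraries. These correlations are descriptions over 24 libraries of log2(CPM + 1), which share sequencing depth and tissue make-up, and carry no test. Ghr and Igf1 had a Pearson r of 0.92, and of 0.89 when group means were taken out. Ghr and Igf1r ran opposite to each other (-0.87, and -0.79 within groups). Igfbp6 and Igfbp7 had r = 0.83, and 0.56 within groups. Igfbp3 had no r above 0.62 with any of the others. Against the 12 adipocyte markers, Ghr had r = 0.90, Igf1 0.81 and Igf1r -0.90, while Igf1r had 0.88 with the 12 epithelial markers. With the 10 epididymis markers Ghr had -0.77, Igf1 -0.66 and Igf1r 0.83 (-0.66, -0.61 and 0.75 within groups). Within groups Igf1r also had -0.85 with the endothelium markers and -0.83 with the macrophage markers. Igfbp4 had 0.77 with the macrophage markers and 0.63 with the adipocyte markers, and 0.76 and 0.85 within groups.

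**Figure D4:**
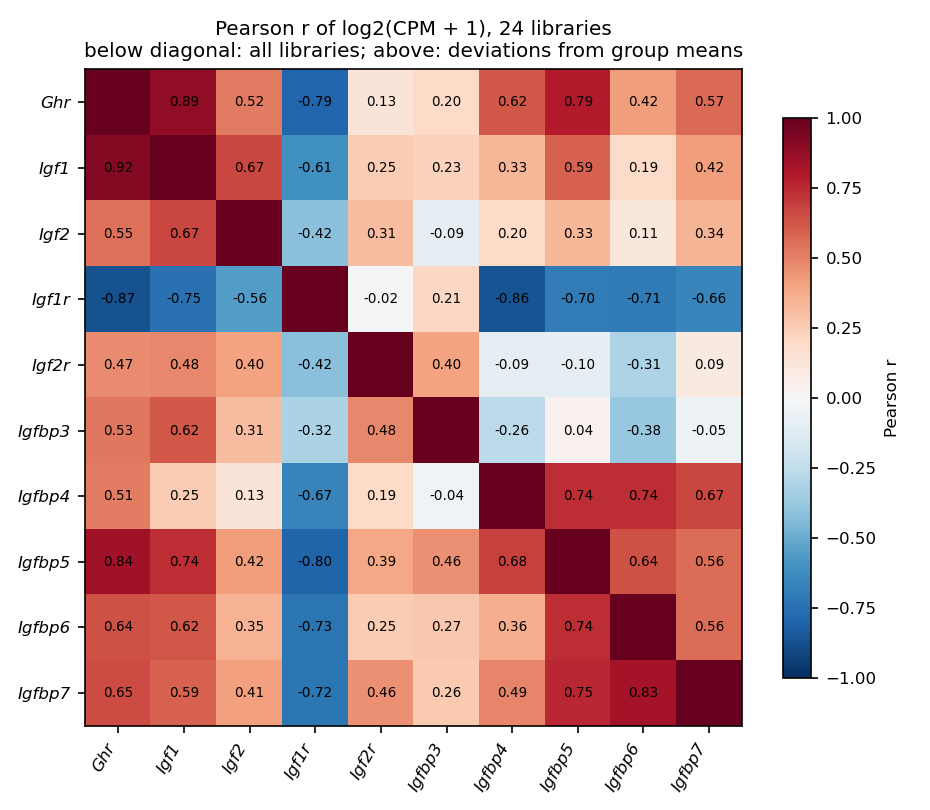
Pearson r between the 10 genes over 24 libraries on log2(CPM + 1), in all libraries (below the diagonal) and after removal of the group means (above it). Below the diagonal the highest values are Ghr with Igf1 (0.92), Ghr with Igfbp5 (0.84) and Igfbp6 with Igfbp7 (0.83), and Igf1r with Ghr is the lowest (-0.87).

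Igfbp6 and Igfbp7 moved with the 12 markers of adipose progenitors and fibroblasts, cells that build the stroma and give rise to adipocytes. The r with that list was 0.92 for Igfbp6 and 0.84 for Igfbp7, and 0.66 and 0.63 within groups. Within groups some other lists had a higher r. For Igfbp6 it was 0.79 with the macrophage markers (0.32 over all libraries). For Igfbp7 it was 0.75 with the endothelium markers (0.30) and 0.65 with the adipocyte markers (0.56). The list itself was lower in males: its sum was 8538 to 17570 CPM in females and 4665 to 8420 CPM in males, and 8 of 12 markers in WT, 5 in Y665F and 6 in Y665H were called lower in males, with 0 called higher; without the 7 male libraries with epididymis markers 2, 2 and 3 were called. Median log2 fold changes of the list were -0.92, -0.74 and -0.47, beside -1.39, -1.49 and -0.97 for Igfbp6 and -0.71, -0.54 and -0.39 for Igfbp7. No male library overlapped the female sums. The part of these cells in the 2 results was not tested.

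**Figure D5:**
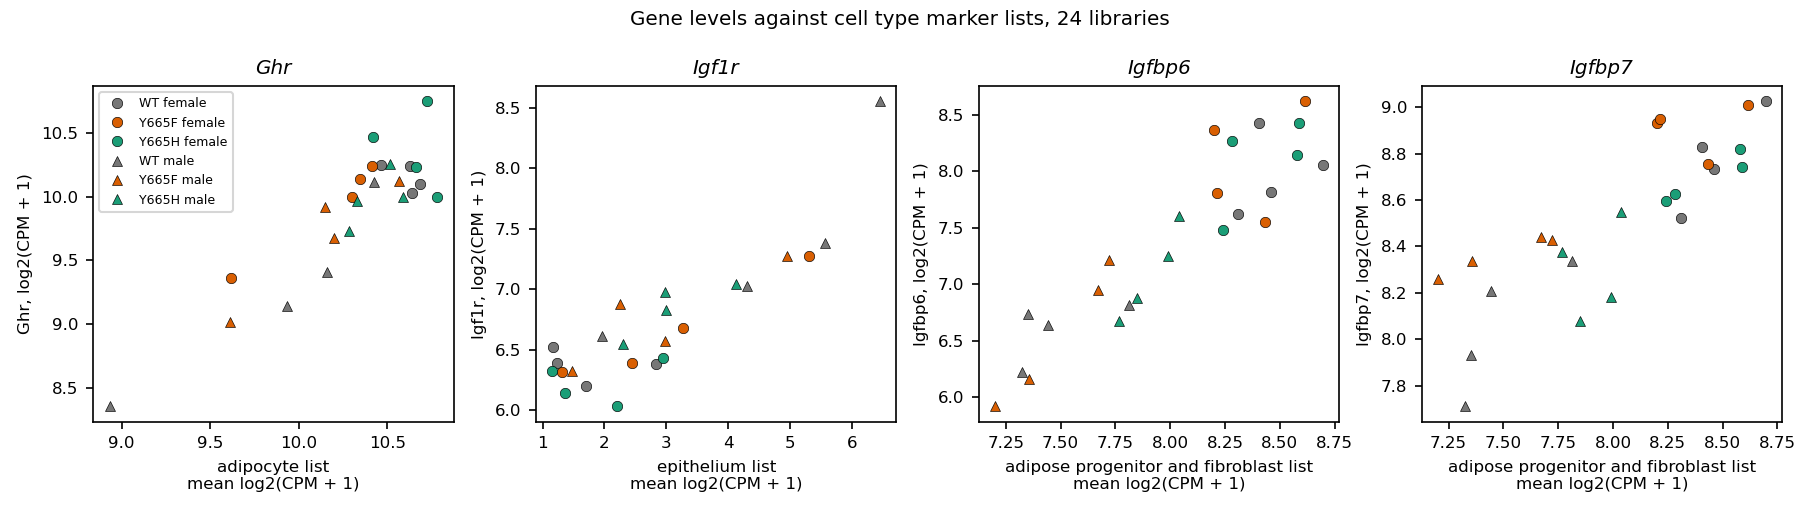
Level of Ghr, Igf1r, Igfbp6 and Igfbp7, as log2(CPM + 1), against the mean log2(CPM + 1) of the marker list named under each panel (24 libraries; circles female, triangles male). WT male 2 is the extreme point for Ghr and Igf1r, and males lie to the lower left of females for Igfbp6 and Igfbp7.

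By the rule of the 3 highest r among 14782 other genes whose mean reached 1 CPM, Ghr was most like Nr3c1, the glucocorticoid receptor gene (0.953), Syap1 (0.948) and Chml (0.941). Igf1 was most like Chml (0.938), Pnpt1 (0.913) and Ptpn4 (0.911). Igf2 had no r above 0.759 (Ppargc1b, then Ccdc69 and Adam12). Igf1r was most like 2610528J11Rik (0.960), Rnf157 (0.955) and Fam73a (0.944), and Igf2r like Mtmr3 (0.846), Filip1 and Rps6ka5. Among binding protein genes, Igfbp3 was most like Yae1d1 (0.823), Nab1 and Angptl1, Igfbp4 like Shisa5 (0.927), Iqsec2 and Mgat1, and Igfbp5 like Plod3 (0.943), Mmd and Hspa12a. Igfbp6 was most like Serpinb1a (0.957), Rpp25 (0.951) and Aebp1 (0.948), and Igfbp7 like Lsp1 (0.919), Cd209f (0.919) and Tbc1d2b (0.917).

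A further 54 genes of the pathway were listed by role: hormones and circulating carriers, growth hormone signalling, insulin and IGF receptor signalling, proteases of binding proteins, and the Igf2 locus. Against WT, 0 of 48 tested genes were called in Y665F females, and 17 of the 48 had an unadjusted p under 0.05, as did 26.3% of all genes. In Y665H females 2 of 48 were called, which is 4.17% beside 3.34% of all genes. The 2 were Irs1, the docking protein of the insulin and IGF1 receptors, at 362 ± 43.4 against 249.4 ± 20.6 CPM (SD, n = 4; log2 fold change 0.53 ± 0.11, SE, adjusted p = 0.0407, edgeR), and Grb14, an adaptor that inhibits those receptors, at 4.19 ± 1.77 against 9.59 ± 1.93 CPM (-1.20 ± 0.27, 0.0493). In males 0 were called for either mutation. Of 48 tested genes, Y665H females had 5 higher than Y665F females and 0 lower, which is 10.4% beside 17.4% of all genes. Among them were Pik3cb, a catalytic PI3-kinase subunit (129 against 62.6 CPM, 1.03 ± 0.14), Adam12, a protease that cuts binding proteins (0.94 ± 0.21), and H19, the noncoding neighbour of Igf2 (2.44 ± 0.68, with 4.11 to 44.1 CPM against 2.44 to 3.48 CPM). Calls of Irs1 and Grb14 in Y665H females each held in 1 of 8 fits without a library, that of Pik3cb in all 8, and that of H19 in 3. Socs2, the feedback inhibitor induced by growth hormone through STAT5, lay at 38.7 ± 6.32 CPM in Y665F females, 32.8 ± 4.62 in Y665H females and 24.4 ± 7.43 in WT females, without a call (adjusted p = 0.123 and 0.263).

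Between the sexes, 11 of 48 pathway genes were called in WT (1 higher and 10 lower in males), 11 in Y665F (5 and 6) and 16 in Y665H (5 and 11), which is 22.9%, 22.9% and 33.3% against 13.1%, 15.1% and 28.8% of all genes. Socs2, Irs1, Grb10 and Mmp2 were called lower in males in all 3 genotypes, where 5.95%, 7.52% and 13.7% of all genes were called lower in WT, Y665F and Y665H. The share of all genes called lower in every genotype was not counted. Socs2 was at 11.1, 16.7 and 10.9 CPM in WT, Y665F and Y665H males, and its log2 fold changes were -1.11 ± 0.24, -1.21 ± 0.15 and -1.58 ± 0.17 (SE). Irs1 gave -1.10, -0.72 and -1.35, Grb10, an inhibitor of the same receptors, gave -1.32, -0.67 and -0.85, and Mmp2, a matrix protease, gave -1.20, -1.14 and -1.08. Left-out libraries ended some of these calls: in WT that of Socs2 held in 4 of 8 such fits, of Irs1 in 3 and of Mmp2 in 4, and in Y665F that of Irs1 in 2 and of Mmp2 in 7, while Grb10 kept its call in all 8 in each genotype. Grb14 rose in Y665F males (1.9 ± 0.39) and Y665H males (3.25 ± 0.26), with 26.2 to 44.8 CPM in those 8 males against 2.95 to 16.6 CPM in the 8 females; in WT it gave 1.27 ± 0.38 with an adjusted p of 0.0601. Pappa2, a protease of binding proteins, rose in WT males (3.66 ± 0.66) and Y665H males (3.55 ± 0.60). In WT its value was 2.74 without WT male 3, and the call held in 4 of 8 fits without a library. Igfals, the third component of the circulating IGF complex, fell in WT males, at 28.3 ± 4.53 against 80.5 ± 36.6 CPM in females (-1.49 ± 0.29, adjusted p = 0.0205, edgeR). That call held in 5 of 8 fits without a library, and the call of Grb14 in Y665F in 6. No pathway gene was called in either interaction, where 11 of 49 and 6 of 51 had an unadjusted p under 0.05, beside 21.8% and 18.3% of all genes. Without the 7 male libraries with epididymis markers, 4, 3 and 11 pathway genes were called between the sexes in WT, Y665F and Y665H. The WT fit has 1 male, and its spread comes from the females alone. Grb10 in WT (-0.99), Socs2 in Y665F (-1.17) and Socs2, Irs1, Grb10, Mmp2 and Grb14 in Y665H were among them.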

How the data were processed

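Total RNA of 24 adipose libraries was depleted of ribosomal RNA with a stranded TruSeq Ribo-Zero Gold kit and sequenced as read pairs on a NovaSeq instrument, per the labels' protocols. The authors deposited 1 table of whole-number read counts per gene symbol for each library. The submitters' processing notes name FastQC 0.11.9, Trimmomatic 0.36, STAR, SAMtools 1.9, Picard 2.9.2, HTSeq 0.9.1 and mm10; the annotation and the strand setting of the counting are not given in the sources used here. The 5 entries that name no gene held 24.8% to 39.7% of each library and were left out.

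From the counts, edgeR 4.0.16 (R 4.3.3, limma 3.58.1) gave quasi-likelihood tests with TMM scaling, the default filterByExpr and Benjamini-Hochberg adjustment over all genes tested, with a threshold of 0.05. Each of the 9 comparisons used only its 8 libraries and each of the 2 interactions 16. Sequences and exon lengths came from RefSeq (GRCm38.p6) and GENCODE vM21. The scripts were tested on simulated counts. Alternatives were DESeq2 1.42.0, its size factors, library totals, no filter, the replicate number as a block, 1 fit of all 24 libraries, and each library left out; leaving out male libraries with over 100 CPM of epididymis markers was added after seeing the data.

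The 10 genes, the pathway and marker lists and the tests were chosen with earlier results of these data known. By rule the text names all 10 genes, Stat5b, at most the 4 called genes of smallest p per pathway list and comparison, and for each gene the 3 others with the highest correlation; other genes are named only where a sentence says what singles them out. Some pathway genes that the rule would name are counted but not reported here. Replicate numbers did not pair the libraries.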

Additional observations from a re-analysis of the deposited data

Results flagged for a closer look

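Of 60 sets of 4 libraries (10 genes in 6 groups), 0 held a library whose gap to its nearest neighbour was too large a share of the range of its set by Dixon's criterion. Among 132 such sets of other named genes and of summed marker lists, 19 did, and a share of about 1 in 20 is due to chance alone. In Y665F female 3 the adipocyte sum was lowest at 13040 CPM (next 21050), the epithelial sum was 1651 CPM (next 279) and the sum of pericyte and smooth muscle markers 9021 CPM (next 2240), and skeletal muscle markers summed to 185 CPM (next 81.0). Y665F male 4 had 490 CPM of epithelial markers (next 119), 4420 CPM of pericyte and smooth muscle markers (next 1113), 22.0 CPM of Pappa2 (next 4.85) and 28.8 CPM of Stc2, the lowest (next 42.8). In Y665H female 4 the T cell markers summed to 37.0 CPM (next 12.7), pericyte and smooth muscle markers to 3130 CPM (next 1333) and macrophage markers to 794 CPM, the lowest (next 1131).

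The Y665H males also held such values: male 2 had 66.1 CPM of Igfals (next 36.2), 116 CPM of Stat5b (next 99.0) and 4.28 CPM of Pappa2, the lowest (next 13.7), and male 3 had 1528 CPM of epididymis markers (next 153). WT male 2 had 12.6 CPM of thermogenic adipocyte markers, the lowest (next 19.3). WT male 3 had 33.7 CPM of Pappa2 (next 8.74), WT female 4 had 1.11 CPM of epididymis markers (next 0.624), and Y665F male 1 had 1.5 CPM of H19 (next 1.08).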

How the results depend on the processing

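Of 1780 log2 fold changes recomputed for the 10 genes in 11 comparisons, 1643 counted as the same. These were called in both fits with the same sign, or uncalled in both and within 1 SE. Another 43 lost a call, 31 gained one, 63 moved by more than 1 SE without a call, and 0 of the called ones reversed. Among uncalled values, 88 changed sign. DESeq2 called 7 of the 10 genes between the sexes in WT, against 4, and 1 each in Y665F against WT females, between the mutant females and in both interactions, against 0. The fit of all 24 libraries called 8 between the sexes in WT, and 1 each in Y665F against WT in females and in males (Igfbp4) and between the mutant females. Over all genes, the alternatives that kept every library called up to 5987 between the sexes in WT. Library totals called 1 (Igfbp7) between the mutant females. Without the male libraries with epididymis markers the counts between the sexes were 0 in WT, Y665F and Y665H.

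Leaving out 1 library gave 1 to 8 called genes between the sexes in WT, 1 to 2 in Y665F and 2 to 3 in Y665H. It gave 0 to 1 in Y665F against WT females and between the mutant females, 0 to 2 in each interaction, and 0 in the remaining comparisons. The 8 in WT came without WT male 1, when Ghr (-1.10, adjusted p = 0.0187, edgeR), Igf1 (-1.18, 0.0245), Igf1r (1.45, 0.0173) and Igfbp4 (-0.91, 0.0328) joined. That fit called 5076 of all genes, against 2079 with every library, and its WT males 2, 3 and 4 all carried epididymis markers. The 1 between the mutant females was Igfbp3 without Y665H female 2 or Igf2 without Y665F female 3. Over all genes, leaving out 1 library gave 251 to 5076 calls between the sexes in WT and 787 to 2180 in Y665F. It gave 3599 to 4749 in Y665H, and 0 to 1686 and 0 to 1844 in the Y665F and Y665H interactions.

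For the 54 pathway genes, DESeq2 called 18 between the sexes in WT and 17 in Y665F, 10 in Y665F against WT females, 3 in Y665F against WT males, 11 between the mutant females, 6 between the mutant males, and 4 and 1 in the Y665F and Y665H interactions. In the same order DESeq2 called 21%, 20.4%, 9.95%, 5.28%, 19.5%, 5.19%, 5.45% and 3.28% of all genes. The fit of all 24 libraries called 23 between the sexes in WT, 2 in Y665F and 0 in Y665H against WT females, 3 in Y665F against WT males and 2 between the mutant males. Library totals gave 1 and 0 in Y665F and Y665H against WT females and 10 between the mutant females, and no filter gave 1 in Y665H against WT females. Without the male libraries with epididymis markers 4 were called between the sexes in WT and 3 in Y665F. Leaving out 1 library gave 1 to 19, 4 to 9 and 12 to 20 between the sexes in WT, Y665F and Y665H, 0 to 1 in Y665F and 0 to 2 in Y665H against WT females, 0 to 1 in Y665F against WT males, 2 to 7 between the mutant females, and 0 to 7 and 0 to 5 in the interactions. Over all genes, leaving out 1 library gave 67 to 747 calls in Y665F and 20 to 1269 in Y665H against WT females. It gave 0 to 570 in Y665F against WT males and 1554 to 2839 between the mutant females. The alternatives that kept every library called up to 5987 of all genes between the sexes in WT, against 2079 in the main fit. The pathway counts thus moved together with those over all genes, and the cause of these shifts was not tested.

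The replicate numbers gave no pairing: same-numbered libraries correlated at -0.38 to 0.73 in their deviations from the group means, and in 0 of 9 comparisons were all such values over 0.1. The 9 comparisons held 36 same-number pairs, with libraries used more than 1 time. In 8 of these pairs a library correlated best with its own number in the other group. With the number as a replicate block, the calls among the 10 genes were 2 between the sexes in WT and 1 each in Y665F against WT females and between the mutant females, and among pathway genes 4 and 6 between the sexes in WT and Y665F, 1 and 0 in Y665F and Y665H against WT females, and 3 between the mutant females. Over all genes, the counts called by edgeR, by edgeR with the block and by DESeq2 were 521, 676 and 2031 in Y665F against WT females, 516, 32 and 1760 in Y665H against WT females, 2689, 1583 and 3974 between the mutant females, 164, 0 and 1096 between the mutant males, and 2079, 825 and 4549 between the sexes in WT. They were 2361, 1173 and 4260 between the sexes in Y665F. Against WT males edgeR called 0 and DESeq2 1143 for Y665F and 119 for Y665H, and in the interactions 0 and 2 against 1193 and 718. Library totals moved the median gene from 0.04 to 0.22 between the sexes in WT, from 0.02 to 0.15 in Y665F against WT females, from -0.03 to -0.18 between the mutant females and from -0.06 to -0.25 in the Y665F interaction. Each of the 10 genes had at least 408 counts in every library.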
